A study of Homo sapiens with 36 samples.

Results

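The receptor tyrosine kinase KIT and the platelet-derived growth factor (PDGF) system were followed through MEIS1 and MEIS2 perturbation in human neural stem cells (hNSC). The group was set by name, with earlier results of these data known. It holds 8 genes, the ligands KITLG, PDGFA, PDGFB, PDGFC and PDGFD and the receptors KIT, PDGFRA and PDGFRB. All 8 were found among the 28516 genes of the count table and passed the filter of at least 10 counts over all libraries, as did 19689 genes in total.

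RNA-seq counts were available for 36 libraries of purchased hNSC, with 6 libraries in each of 6 conditions and a harvest 48 h after lentiviral infection. In MEIS1-OE and MEIS2-OE, the endogenous gene was overexpressed by CRISPR-activation. Cells of ctrl-OE received the same activation machinery, carried on 3 lentiviruses, with non-targeting guide RNA. The study lists 1 activation guide per gene and 1 non-targeting guide. Effects of a single activation guide and of the activated gene therefore cannot be told apart. In MEIS1-KO and MEIS2-KO, CRISPR/Cas9 was delivered on 1 vector type with 2 guides per gene mixed at equal parts. Cells of ctrl-KO received Cas9 with non-targeting guide RNA, which has no intended cut site. Changes shared by both knockouts therefore cannot be told apart from a response to cutting. All cells are of 1 commercial line, and since no cloning of infected cells is described, edited and unedited cells may have been sequenced together. The study imaged and extracted each sample on its own, but whether samples of a condition came from separate infections or passages is not given in the sources used here, so p-values measure the spread between these samples. Less RNA per cell and fewer cells expressing a gene cannot be told apart in such bulk libraries.

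KIT is the receptor for stem cell factor, the product of KITLG, and is known for its role in melanocyte, germ cell and blood progenitors. The PDGF chains form dimers: PDGFA and PDGFC products act mainly through PDGFRA, PDGFD products mainly through PDGFRB, and PDGFB products through both. PDGFC and PDGFD products are secreted with an inhibitory domain that extracellular proteases cut off. In the developing brain PDGFRA is best known from oligodendrocyte precursors and PDGFRB from pericytes.

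Both perturbed genes moved as their labels say. MEIS1 mRNA was 17.8 ± 1.10 CPM (CPM are read counts scaled to the TMM-normalized size of each library; SD, n = 6) in ctrl-OE and 310 ± 14.3 CPM (SD, n = 6) in MEIS1-OE, and it was 25.7 ± 1.66 CPM (SD, n = 6) in ctrl-KO and 8.96 ± 1.74 CPM (SD, n = 6) in MEIS1-KO. For MEIS2, ctrl-OE had 22.6 ± 1.23 and MEIS2-OE 824 ± 20.04 CPM, while ctrl-KO had 25.8 ± 1.58 and MEIS2-KO 12.1 ± 0.936 CPM (SD, n = 6 each). Libraries held 15429985 to 22940493 counted reads with a median of 20324720. Of the neural stem cell markers, NES ranged from 823 to 2115 CPM and SOX2 from 86.4 to 322 CPM over all libraries, while the Notch effector HES5 was at or under 1.64 CPM.

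The 250 bases before the annotated start were taken from RefSeq (GRCh38.p14) and placed on GRCh37, the build of the counts, by exact match. They are shown for KIT and PDGFA, which responded most to MEIS activation, and for PDGFRA, whose window alone holds TGACAG, the core of the sequence that MEIS homeodomains bind. The letters are read 5′ to 3′ along each gene's own strand, and capitals mark that motif. The KIT window lies at chr4:55523874-55524123 (plus strand), the PDGFA window at chr7:559484-559733 (minus strand) and the PDGFRA window at chr4:55095210-55095459 (plus strand).
KIT: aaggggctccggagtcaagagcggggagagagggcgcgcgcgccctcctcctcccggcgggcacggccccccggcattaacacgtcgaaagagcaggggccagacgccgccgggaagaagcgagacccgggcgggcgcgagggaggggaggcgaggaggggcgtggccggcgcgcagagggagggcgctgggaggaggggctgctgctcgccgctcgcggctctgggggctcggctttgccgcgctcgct
PDGFA: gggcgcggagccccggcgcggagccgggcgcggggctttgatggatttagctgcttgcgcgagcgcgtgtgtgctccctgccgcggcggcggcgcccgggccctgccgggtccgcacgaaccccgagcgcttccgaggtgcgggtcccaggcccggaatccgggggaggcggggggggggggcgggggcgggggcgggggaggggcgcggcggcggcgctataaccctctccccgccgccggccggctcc
PDGFRA: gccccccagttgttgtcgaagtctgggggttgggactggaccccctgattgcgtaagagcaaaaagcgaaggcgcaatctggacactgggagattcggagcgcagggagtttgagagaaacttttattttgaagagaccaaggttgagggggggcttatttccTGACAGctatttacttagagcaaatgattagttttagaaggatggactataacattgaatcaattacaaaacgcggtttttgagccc
Windows were given for 6 of the 8 genes, 10 windows in all, since PDGFA has 4 and PDGFRA 2 annotated starts. TGACAG or its reverse complement CTGTCA was present in 1 of these 10 windows, the PDGFRA window above, at position -87 from the start. Over all 35116 windows of this length, 13.0% held the motif. In the study's ChIP-seq of untreated hNSC, most MEIS binding sites lay far from transcription starts. Windows this short therefore cannot tell whether MEIS binds elsewhere at these genes, and binding was not tested here. The GC content was 76.4% in the KIT window and 81.6% in the PDGFA window, against a median of 58.0% over all windows, and it was 46.8% in the PDGFRA window.

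Levels of different genes were compared as CPM per kb of exon in the Ensembl canonical transcript, which ranged from 2.742 kb for PDGFA to 6.378 kb for PDGFRA. In ctrl-OE, the order of the level per kb was PDGFRB (14.6 ± 1.91), PDGFB (9.98 ± 1.48), KITLG (8.90 ± 0.629), PDGFC (8.28 ± 1.01), PDGFD (3.19 ± 0.162), KIT (0.957 ± 0.0489), PDGFA (0.327 ± 0.0391) and PDGFRA (0.0857 ± 0.0227; all SD, n = 6). The levels of PDGFB, KITLG and PDGFC were within their spread of each other. In ctrl-KO, PDGFC came first with 16.9 ± 0.561 CPM per kb (SD, n = 6), KITLG had 15.8 ± 1.08 and PDGFRB 13.0 ± 0.738, and PDGFC and KITLG were within their spread. PDGFRA and PDGFA were the lowest there, with 0.172 ± 0.0495 and 0.131 ± 0.0486 CPM per kb (SD, n = 6), again within their spread. Of the 2 PDGF receptors, the counted mRNA was therefore mainly that of PDGFRB, in both control conditions. In the annotation used here, another protein-coding gene overlaps PDGFRA on the same strand. Whether this overlap lowered the counts of PDGFRA was not tested.

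**Figure D1:**
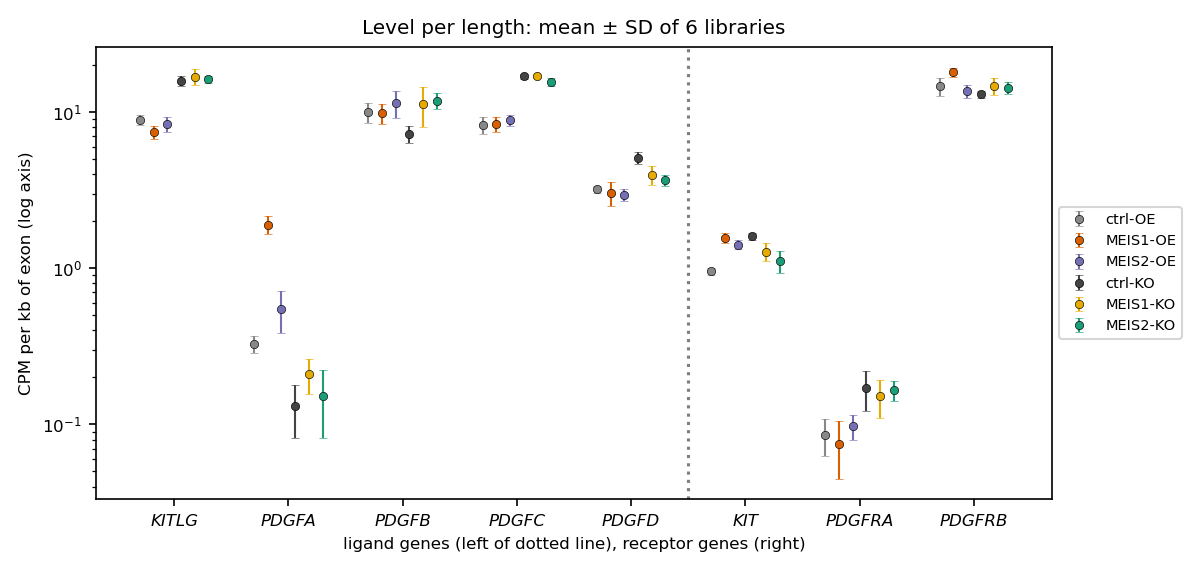
Mean level of each gene in CPM per kb of exon (log axis) in the 6 conditions, with the SD of 6 libraries as whiskers, for ligands on the left and receptors on the right. PDGFRB lies above KIT and PDGFRA in every condition, and PDGFA is the ligand with the lowest level, from 0.131 in ctrl-KO to 1.90 in MEIS1-OE.

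Which of the 8 genes responded to each perturbation was tested against the control with the same delivery system, with edgeR's quasi-likelihood test and Benjamini-Hochberg adjustment over all 19689 genes; a gene passed at an adjusted p under 0.05. In MEIS1-OE 4 of 8 passed (KIT, PDGFA and PDGFRB higher, KITLG lower), where 9.10% of all tested genes passed. In MEIS2-OE 2 of 8 passed (KIT and PDGFA, both higher), where 1.35% of all genes did. The share among all genes was 1.46% in MEIS1-KO and 10.0% in MEIS2-KO, and 3 of 8 passed in each: PDGFB was higher, and KIT and PDGFD were lower. DESeq2 gave the same counts. Since members were chosen with earlier results known, these counts are no test of an excess over all genes. The activations share the ctrl-OE libraries and the knockouts share the ctrl-KO libraries, so that the paired results are not independent. What both knockouts have in common also cannot be told apart from a response to Cas9 cutting.

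**Figure D2:**
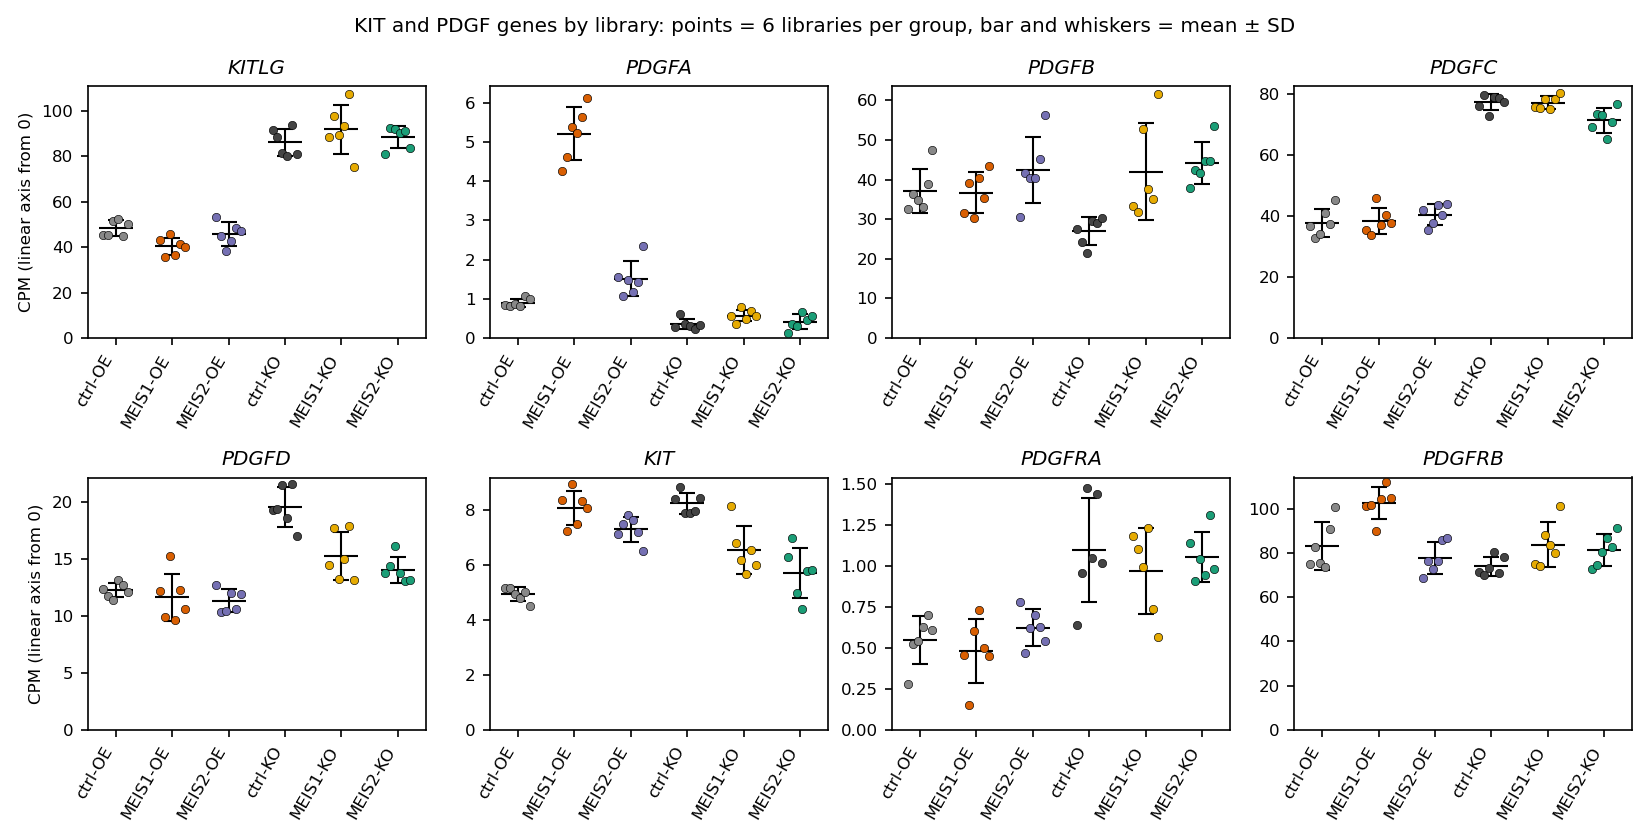
CPM of each gene (linear axes from 0) in every library, with 6 points per condition and the mean ± SD in black. KIT in both activations lies above all ctrl-OE libraries, PDGFA in MEIS1-OE is 4.26 to 6.12 CPM against 0.805 to 1.07 CPM in ctrl-OE, and PDGFB in both knockouts lies above all ctrl-KO libraries.

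KIT mRNA rose with the activation of either paralog and fell in both knockouts. The receptor gene spans chr4:55523434-55606949 on the plus strand (GRCh37; 21 exons in the canonical transcript). KIT was at 4.501, 4.98 and 5.17 CPM in ctrl-OE (lowest, median and highest of 6 libraries), at 7.24, 8.19 and 8.96 CPM in MEIS1-OE and at 6.50, 7.34 and 7.82 CPM in MEIS2-OE. Every library of both activations was thus above every ctrl-OE library. The log2 fold change of KIT was 0.71 ± 0.09 (SE) in MEIS1-OE and 0.56 ± 0.09 (SE) in MEIS2-OE, with adjusted p = 5.57e-08 and 3.61e-05 from edgeR.

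Among knockout libraries, KIT was at 7.89, 8.18 and 8.83 CPM in ctrl-KO, at 5.68, 6.36 and 8.14 CPM in MEIS1-KO and at 4.41, 5.80 and 6.99 CPM in MEIS2-KO. All MEIS2-KO libraries were below all ctrl-KO libraries, while the highest MEIS1-KO library lay within the ctrl-KO range. KIT fell by 0.53 on the log2 scale in MEIS2-KO (SE 0.09, adjusted p = 7.52e-05 from edgeR) and fell by 0.33 in MEIS1-KO (SE 0.09, adjusted p = 0.0344). The MEIS1-KO call was lost when replicate 2, 3, 4, 5 or 6 was left out of every condition (adjusted p between 0.0744 and 0.179) and when only MEIS1-KO and ctrl-KO were fitted (adjusted p = 0.0832).

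The study's own design subtracts the knockout effect from the activation effect of each paralog. KIT had a log2 contrast of 1.04 ± 0.12 (SE) for MEIS1 and 1.10 ± 0.12 (SE) for MEIS2, with adjusted p = 7.51e-08 and 7.7e-08 from edgeR. In the MEIS1 contrast 4 of 8 genes passed (KIT and PDGFA positive, KITLG and PDGFB negative) against 3.48% of all genes, and in the MEIS2 contrast KIT alone passed against 2.57% of all genes. The effects of the 2 paralogs on KIT were not told apart. KIT in MEIS1-OE against MEIS2-OE had a log2 difference of 0.15 (95% interval -0.02 to 0.32), and in MEIS1-KO against MEIS2-KO of 0.20 (0.02 to 0.38, adjusted p = 0.855 from edgeR). Between the knockouts none of the 8 genes passed with edgeR or DESeq2, where 0.0152% of all genes passed with edgeR, and 1 of 8, KIT, had an unadjusted p under 0.05.

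**Figure D3:**
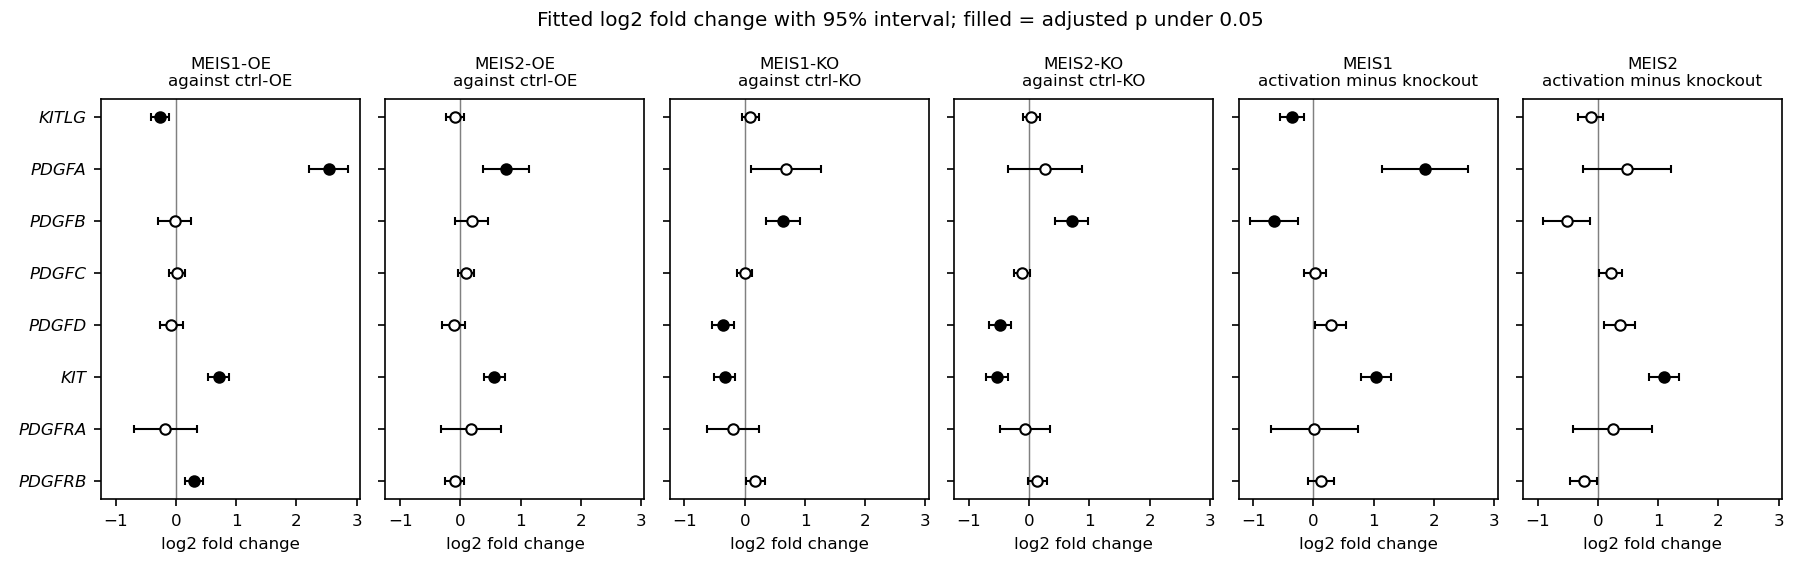
Fitted log2 fold change of each gene with its 95% interval in the 4 comparisons with control and the 2 contrasts (activation effect minus knockout effect); filled points have an adjusted p under 0.05. KIT is to the right of 0 in both activations and both contrasts and to the left in both knockouts, and PDGFA in MEIS1-OE has the largest value of all, 2.54.

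KITLG, which encodes the KIT ligand, was at 45.1, 47.9 and 52.5 CPM in ctrl-OE and at 35.7, 40.7 and 45.7 CPM in MEIS1-OE (lowest, median and highest). The ranges met, with the highest MEIS1-OE library just above the lowest control. KITLG fell by 0.26 on the log2 scale in MEIS1-OE (SE 0.07, adjusted p = 0.015 from edgeR), and this call was lost without replicate 2 (adjusted p = 0.0714) or replicate 4 (0.157). In MEIS2-OE it was at 38.2, 46.0 and 53.2 CPM, with a log2 fold change of -0.08 (95% interval -0.23 to 0.07). KITLG was at 84.8 CPM in ctrl-KO, 91.4 CPM in MEIS1-KO and 90.7 CPM in MEIS2-KO (medians), and neither knockout passed. The MEIS1 contrast of KITLG was -0.36 ± 0.10 (SE, adjusted p = 0.0388 from edgeR), and it did not pass without replicate 2, 4 or 5 (adjusted p = 0.155, 0.283 and 0.0936) or with only its 4 conditions fitted (adjusted p = 0.0518).

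PDGFA had the largest response of the group. This gene on chr7:536895-559933 (minus strand) encodes the PDGF A chain, a ligand for PDGFRA. It was at 0.805, 0.857 and 1.07 CPM in ctrl-OE (18 to 23 counts per library), at 4.26, 5.30 and 6.12 CPM in MEIS1-OE (84 to 136 counts) and at 1.07, 1.45 and 2.35 CPM in MEIS2-OE (22 to 48 counts). All MEIS1-OE libraries were above all others of the activation system, while MEIS2-OE and ctrl-OE touched at 1.07 CPM. PDGFA rose 5.80-fold in MEIS1-OE, a log2 fold change of 2.54 ± 0.16 (SE, adjusted p = 1.49e-15 from edgeR).

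In MEIS2-OE the log2 fold change of PDGFA was 0.75 ± 0.19 (SE, adjusted p = 0.0238 from edgeR), a call that was lost without replicate 1, 3, 4, 5 or 6 (adjusted p between 0.0659 and 0.2) and with only the compared conditions fitted (adjusted p = 0.0703). The 2 activations differed, with a log2 difference of 1.78 ± 0.15 (SE, adjusted p = 4.85e-12) in favour of MEIS1-OE. In this comparison 2 of 8 genes passed, PDGFA and PDGFRB, against 7.75% of all genes. In the knockout system PDGFA was barely counted, with 5 to 11 counts per library in ctrl-KO, 7 to 15 in MEIS1-KO and 2 to 15 in MEIS2-KO. No change passed there, and the fitted log2 fold changes were 0.68 (95% interval 0.10 to 1.26; adjusted p = 0.309 from edgeR) in MEIS1-KO and 0.27 (-0.34 to 0.88) in MEIS2-KO. The PDGFA contrast was 1.85 ± 0.35 (SE, adjusted p = 5.65e-04 from edgeR) for MEIS1 and 0.48 (95% interval -0.25 to 1.22) for MEIS2.

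PDGFB, which encodes the B chain that binds both PDGF receptors, rose in both knockouts. It lies on chr22:39619364-39640987 (minus strand). PDGFB was at 21.4, 28.3 and 30.4 CPM in ctrl-KO, at 31.9, 36.4 and 61.6 CPM in MEIS1-KO and at 37.9, 43.5 and 53.6 CPM in MEIS2-KO. No knockout library of either gene reached down to the control range, and MEIS1-KO replicates 3 and 6 were the highest of their condition with 52.7 and 61.6 CPM. Replicate 6 also had the highest PDGFB level in every other condition, from 30.4 CPM in ctrl-KO to 56.4 CPM in MEIS2-OE. The log2 fold change of PDGFB was 0.71 ± 0.14 (SE) in MEIS2-KO and 0.64 ± 0.14 (SE) in MEIS1-KO, with adjusted p = 7.85e-04 and 0.00853 from edgeR. The MEIS1-KO call was lost without replicate 3 (adjusted p = 0.139) and with only the compared conditions fitted (adjusted p = 0.0561).

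In the activations PDGFB had medians of 35.6 CPM in ctrl-OE, 37.3 CPM in MEIS1-OE and 41.0 CPM in MEIS2-OE, and neither activation passed. The contrast of PDGFB was -0.66 ± 0.19 (SE, adjusted p = 0.0476 from edgeR) for MEIS1, and this call was lost whichever replicate was left out (adjusted p between 0.0522 and 0.269). For MEIS2 it was -0.52 ± 0.19 (SE, adjusted p = 0.156). The MEIS2 contrast of PDGFB passed under 1 of 13 alternatives, the replicate block, with the same value of -0.52 (adjusted p = 0.0234 from edgeR).

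PDGFD, the ligand of PDGFRB that proteases must activate, went the other way in the knockouts. The gene spans chr11:103777917-104035107 (minus strand). PDGFD was at 17.1, 19.4 and 21.6 CPM in ctrl-KO, at 13.2, 14.7 and 17.9 CPM in MEIS1-KO and at 13.1, 13.8 and 16.2 CPM in MEIS2-KO. All MEIS2-KO libraries were below all controls, and MEIS1-KO overlapped with them. PDGFD fell by 0.48 on the log2 scale in MEIS2-KO (SE 0.09, adjusted p = 5.19e-04 from edgeR) and fell by 0.36 in MEIS1-KO (SE 0.09, adjusted p = 0.0262). The latter call was lost without replicate 1, 3, 4, 5 or 6 (adjusted p between 0.0663 and 0.113) and with only the compared conditions fitted (adjusted p = 0.0739). In the activations the medians were 12.2 CPM in ctrl-OE, 11.4 CPM in MEIS1-OE and 11.3 CPM in MEIS2-OE, and none passed.

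PDGFC, the other protease-activated ligand, acts mainly through PDGFRA and lies on chr4:157681606-157892951 (minus strand). Within each delivery system its levels were close, at medians of 37.02, 37.6 and 41.1 CPM in ctrl-OE, MEIS1-OE and MEIS2-OE and of 78.1, 77.1 and 72.0 CPM in ctrl-KO, MEIS1-KO and MEIS2-KO. None of the 4 comparisons passed, and the 95% intervals of the log2 fold change lay between -0.24 and 0.23 in all of them.

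Of the PDGF receptors, PDGFRB (chr5:149493402-149535435, minus strand) changed in MEIS1-OE. It was at 73.8, 79.2 and 101.0 CPM in ctrl-OE, at 90.2, 103 and 112 CPM in MEIS1-OE and at 68.6, 76.5 and 86.8 CPM in MEIS2-OE. MEIS1-OE overlapped with ctrl-OE through 2 high control libraries but lay wholly above MEIS2-OE. PDGFRB rose in MEIS1-OE by a log2 fold change of 0.30 ± 0.08 (SE, adjusted p = 0.00548 from edgeR), a call that was lost without replicate 4 (adjusted p = 0.0764). Against MEIS2-OE, it was higher in MEIS1-OE by 0.40 ± 0.08 on the log2 scale (SE, adjusted p = 2.36e-04). In the knockouts the log2 fold changes were 0.18 (95% interval 0.02 to 0.33) and 0.14 (-0.02 to 0.29) for MEIS1-KO and MEIS2-KO, and neither passed.

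PDGFRA (chr4:55095447-55164412, plus strand) had few reads, with 3 to 16 counts per library in the activation system and 11 to 30 in the knockout system. Its medians were 0.575, 0.478 and 0.623 CPM in ctrl-OE, MEIS1-OE and MEIS2-OE and 1.03, 1.05 and 1.01 CPM in ctrl-KO, MEIS1-KO and MEIS2-KO. No perturbation passed, and the 95% intervals were wide, from -0.70 to 0.35 in MEIS1-OE and from -0.48 to 0.35 in MEIS2-KO.

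The delivery system itself separated most of these genes. Between ctrl-OE and ctrl-KO 7 of 8 genes passed, against 51.4% of all genes. KITLG (log2 difference -0.83 ± 0.07), PDGFC (-1.03 ± 0.07), PDGFD (-0.68 ± 0.09), KIT (-0.74 ± 0.09) and PDGFRA (-0.999 ± 0.22) were lower in ctrl-OE, and PDGFA (1.32 ± 0.25) and PDGFB (0.46 ± 0.14) were higher (all SE). The ranges of the controls did not overlap for any of these 7 genes except PDGFRA. How many of all tested genes had separate ranges was not counted, so this is no trait of the group. The median level of KIT in MEIS1-OE, 8.19 CPM, was thus close to that in ctrl-KO, 8.18 CPM, and its 5.80 CPM in MEIS2-KO was above the 4.98 CPM of ctrl-OE. The systems differ in vectors and number of viruses, and these cannot be told apart.

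KIT and PDGFRA are neighbours on chromosome 4, and the tested genes around them were examined with them. CHIC2, which lies on the far side of PDGFRA, had log2 fold changes between -0.09 and 0.16 in the 4 comparisons, none of which passed. KDR, the next tested gene beyond KIT, encodes the main receptor for vascular endothelial growth factor. KDR rose in MEIS2-OE (0.36 ± 0.09, SE, adjusted p = 0.0137 from edgeR) and also in MEIS2-KO (0.42 ± 0.08, adjusted p = 0.00101), where KIT fell. SRD5A3, a gene of polyprenol metabolism, rose in MEIS2-OE (0.86 ± 0.05, adjusted p = 7.58e-17) and had -0.10 ± 0.05 in MEIS1-OE, where it did not pass. LNX1, RPL21P44 and SRD5A3-AS1 did not pass in any of the 4. KIT was the gene of this row that passed in all 4 comparisons.

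**Figure D4:**
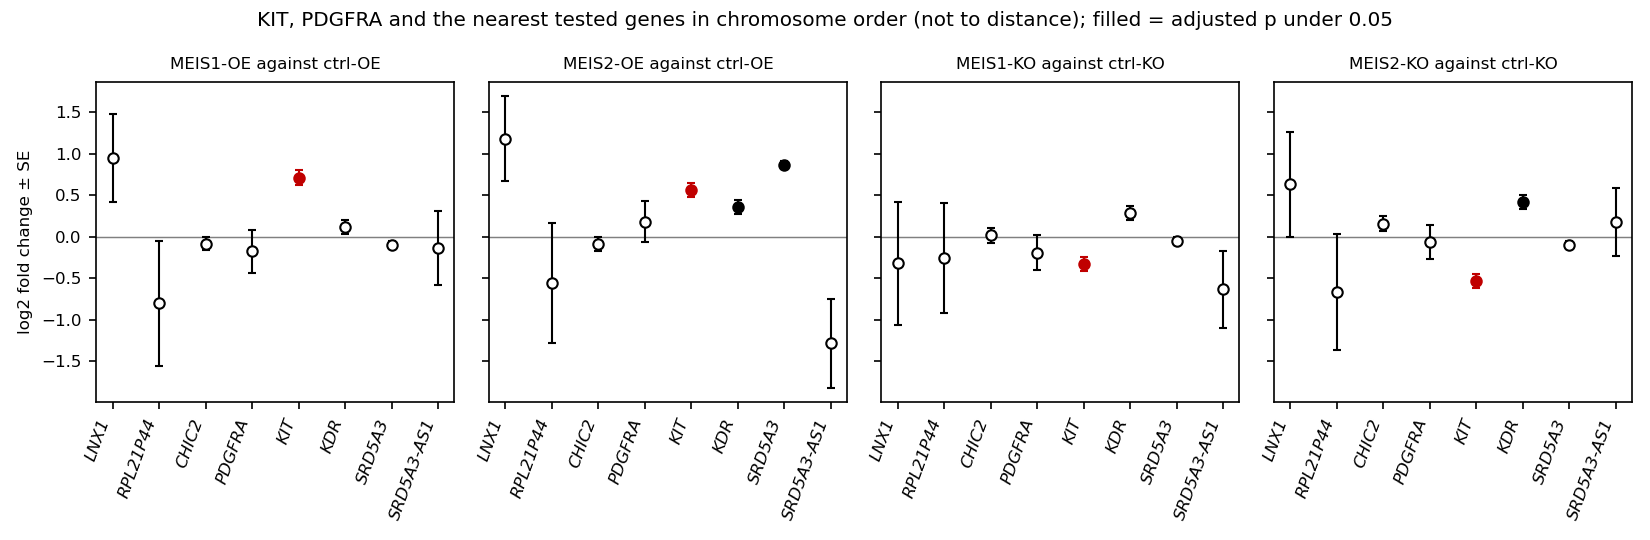
Log2 fold change ± SE of KIT (red), PDGFRA and the nearest tested genes, in chromosome order but not to distance, in the 4 comparisons with control; filled points have an adjusted p under 0.05. KIT is filled in all 4 panels, KDR in both MEIS2 panels, SRD5A3 in the MEIS2-OE panel, and PDGFRA in none.

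Genes that process the ligands or carry the signal were described from lists chosen by function. Of all tested genes, 9.10% passed in MEIS1-OE, 1.35% in MEIS2-OE, 1.46% in MEIS1-KO and 10.0% in MEIS2-KO. List counts here and below are to be read beside these shares, and no list was tested as a set. Of 9 ligand-processing proteases and co-receptors, 1 was higher in MEIS1-OE, none passed in MEIS2-OE, 2 were higher in MEIS1-KO, and 3 were higher and 1 lower in MEIS2-KO, with median log2 fold changes of 0.02, -0.06, 0.29 and 0.29. The medians over all tested genes lay between -0.01 and 0.00. PLAU encodes urokinase, a protease that can activate the PDGFD product. It was at 10.6, 12.9 and 17.0 CPM in ctrl-KO, at 14.6, 22.7 and 26.4 CPM in MEIS1-KO and at 21.1, 24.1 and 26.3 CPM in MEIS2-KO. PLAU rose by a log2 fold change of 0.71 ± 0.13 (SE, adjusted p = 0.00114 from edgeR) in MEIS1-KO and 0.85 ± 0.13 (adjusted p = 2.4e-05) in MEIS2-KO, with every MEIS2-KO library above the controls. In the activations PLAU was at 0.10 ± 0.12 and 0.00 ± 0.12, and neither passed. MMP9, a matrix protease that can release KIT ligand, rose in MEIS1-OE (1.39 ± 0.32, adjusted p = 0.00239) from a median of 0.195 to 0.5999 CPM, with at most 22 counts in a library.

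Of 34 adaptors and signal relay genes, 5 were higher and 1 lower in MEIS1-OE, none passed in MEIS2-OE, 1 was higher in MEIS1-KO, and 2 were higher and 5 lower in MEIS2-KO. The median log2 fold changes of this list were 0.02, -0.01, -0.01 and -0.01. Of all tested genes, 9.10%, 1.35%, 1.46% and 10.0% passed, in the same order of comparisons. Of 17 negative regulators, 16 were tested, none passed in either activation, and 2 and 3 were higher in MEIS1-KO and MEIS2-KO, with medians of 0.06, -0.06, 0.00 and 0.01. INPP5D encodes SHIP1, a phosphatase that limits signalling through phosphoinositide 3-kinase. It was at 25.6, 28.5 and 29.6 CPM in ctrl-KO, at 34.3, 35.7 and 38.3 CPM in MEIS1-KO and at 36.8, 40.1 and 41.1 CPM in MEIS2-KO, with no overlap. INPP5D rose by 0.35 ± 0.05 (SE, adjusted p = 1.54e-04 from edgeR) in MEIS1-KO and by 0.50 ± 0.05 (adjusted p = 3.59e-08) in MEIS2-KO on the log2 scale, and its MEIS2 contrast was -0.60 ± 0.07 (adjusted p = 1.73e-07). DOK2, an adaptor that dampens receptor kinases, also passed in MEIS2-KO but was at 0 in all ctrl-KO libraries and at most 3 counts in a MEIS2-KO library, so that no fold is given.

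Of 13 response genes that growth factor signalling is known to induce, 3 were higher in MEIS1-OE, 2 in MEIS2-OE and 1 in MEIS1-KO, and in MEIS2-KO 3 were higher and 1 lower, with median log2 fold changes of 0.08, 0.09, 0.10 and 0.13. The shares of all tested genes that passed were 9.10%, 1.35%, 1.46% and 10.0%, in the same order of comparisons. IER3, an immediate early gene, was at 19.97, 25.0 and 27.1 CPM in ctrl-KO and at 34.9, 39.3 and 43.8 CPM in MEIS2-KO. IER3 rose there by 0.70 ± 0.14 on the log2 scale (SE, adjusted p = 8.97e-04 from edgeR), and by 0.51 ± 0.14 (adjusted p = 0.0484) in MEIS1-KO. Of the 5 other genes of the class III receptors and their ligands, 1 was higher in MEIS1-OE and 1 (CSF1) in MEIS2-KO. The list had medians of 0.09, 0.35, 0.29 and -0.03, which rest largely on barely counted genes. CSF1R, FLT3 and IL34 had at most 6, 4 and 18 counts in a library. The gene higher in MEIS1-OE was FLT3LG, the ligand of FLT3, at a median of 0.783 CPM there and 0.527 CPM in ctrl-OE. Its log2 fold change was 0.62 ± 0.20 (SE), with at most 22 counts in a library. The adjusted p from edgeR rounds to the threshold, 0.05.

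Markers of cell types that use KIT or PDGF receptors were read alongside. Of all tested genes, 9.10% passed in MEIS1-OE, 1.35% in MEIS2-OE, 1.46% in MEIS1-KO and 10.0% in MEIS2-KO. Of 9 pericyte or mesenchymal markers, none passed in MEIS1-OE or MEIS2-OE, while 4 were higher in MEIS1-KO and 5 in MEIS2-KO, with median log2 fold changes of 0.22 and 0.60. Their summed level was 727 to 980.3 CPM in ctrl-KO, 969 to 1505 CPM in MEIS1-KO and 1058 to 1429 CPM in MEIS2-KO, and 745 to 1088, 662 to 1048 and 726 to 1065 CPM in ctrl-OE, MEIS1-OE and MEIS2-OE. RGS5, a pericyte gene, rose by 0.60 ± 0.10 on the log2 scale in each knockout (SE, adjusted p = 3.15e-04 in MEIS1-KO and 5.33e-05 in MEIS2-KO from edgeR), COL1A1 by 0.82 ± 0.21 and 1.06 ± 0.21 and TAGLN by 0.76 ± 0.17 and 0.88 ± 0.17. DES stayed at or under 1.17 CPM and ANPEP at or under 0.765 CPM in every library. Some of these markers passed in both knockouts, as did PDGFB, PDGFD, KIT, PLAU, INPP5D and IER3. KIT also passed in both activations, where none of the markers did. The part of the markers in those results was not tested.

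Of 8 oligodendrocyte precursor markers, 6 were tested, and PTPRZ1 was lower in both activations and in MEIS2-KO. Their summed level, almost all of it PTPRZ1, was 392 to 491 CPM in ctrl-OE, 303 to 380.1 CPM in MEIS1-OE, 331 to 410.5 CPM in MEIS2-OE, 1065 to 1217 CPM in ctrl-KO, 965 to 1226 CPM in MEIS1-KO and 944 to 1032 CPM in MEIS2-KO. OLIG2 was at or under 1.67 CPM and SOX10 at or under 0.454 CPM, and LHFPL3 had no counts in any library. CSPG4, which encodes the proteoglycan NG2 of precursors and pericytes, rose in MEIS2-KO by 0.67 ± 0.17 on the log2 scale (SE, adjusted p = 0.00814 from edgeR).

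The mast or blood markers, 4 of 8 tested, summed to at most 1.77 CPM in any library, and PTPRC had at most 2 counts. CD34 was higher in MEIS1-OE (1.25 ± 0.21, adjusted p = 4.18e-05), MEIS2-OE and MEIS2-KO. The melanocyte markers summed to 37.1 to 67.3 CPM, of which PMEL gave 36.4 to 66.8 CPM, while MITF was at or under 0.660 CPM. Among 4 tested melanocyte markers 1 was higher in MEIS1-OE. Of 6 endothelial markers, 1 was higher in MEIS2-OE (KDR) and 2 in MEIS2-KO (CDH5 and KDR). Their summed level was 169.8 to 185.5 CPM in ctrl-KO, 170.4 to 225.7 CPM in MEIS1-KO and 205.5 to 252.9 CPM in MEIS2-KO. In ctrl-OE, MEIS1-OE and MEIS2-OE it was 107.0 to 135.0, 113.0 to 154.9 and 130.3 to 171.4 CPM. KDR alone gave 72.7 to 197.2 CPM over all libraries. The part of endothelial markers in the results for PDGFB was not tested. Of 10 neural stem markers, 3 were lower in MEIS1-OE and 1 in MEIS2-OE, and 1 was higher and 1 lower in MEIS1-KO and 1 higher and 5 lower in MEIS2-KO. Of 6 tested neuron markers, 1 was higher and 1 lower in MEIS2-KO. DCX was the lower one and had at most 31 counts in a library. Beside these marker counts, 9.10% of all tested genes passed in MEIS1-OE, 1.35% in MEIS2-OE, 1.46% in MEIS1-KO and 10.0% in MEIS2-KO.

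The genes whose log2 CPM followed each member most closely over the 36 libraries were listed as a description among 13464 genes with a mean of at least 1 CPM. The 36 points share 2 delivery systems, which set most of the range for several genes. PDGFC ran with UBE2E3, PDPN and MID1 (Pearson's r = 0.99 for each), and KITLG with HMMR, CDK1 and SC5D (0.98), of which HMMR and CDK1 serve mitosis. PDGFA ran with C1orf64, ICAM1 and THBS3 (0.95, 0.94 and 0.94), PDGFD with TERF1, FGD4 and C2CD5 (0.93), PDGFRB with MAGED2, NRGN and MYO18A (0.92) and PDGFB with EPAS1, ROBO4 and TXNRD2 (0.87, 0.85 and 0.85). KIT had the weakest companions, VEZF1, PPM1H and STON2 (0.74 for each).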

How the data were processed

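RNA-seq of 36 hNSC libraries was analysed from the raw count table deposited by the authors, who prepared stranded poly-A libraries, sequenced 100 bases from both ends, used STAR for alignment to hg19 (GRCh37) and HTSeq 0.6.0 for counting per gene. The STAR version is 2.4.2a in the series text and 2.7.0a, with Trimmomatic 0.39, in the submitters' processing notes. Counts were not normalized, and the strand setting of the counting was not given in the sources used here. Libraries were scaled by TMM in edgeR 4.0.16, genes with at least 10 counts over all libraries were kept, and 1 quasi-likelihood model of the 6 conditions gave all comparisons (two-sided, prior count 0.125, adjusted by Benjamini-Hochberg over 19689 genes). A contrast is the activation effect minus the knockout effect. DESeq2 1.42.0, RLE scaling, other filters, a prior count of 2, a replicate block, fits of only the compared conditions and leaving out each replicate were the alternatives. Members and gene lists were chosen with earlier results of these data known. Named were all members, up to 4 genes of a list per comparison with adjusted p under 0.05 and a log2 fold change beyond 0.58, 3 neighbours on each side of KIT and PDGFRA, and the 3 nearest companions. The biological coefficient of variation was 0.0915, and no pair of libraries of a condition agreed within counting error (chi-square per degree of freedom at least 2.63). Positions and exon lengths came from GENCODE annotation on GRCh37. PDGFB and PDGFC had no promoter window in the table used here.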

Additional observations from a re-analysis of the deposited data

Results flagged for a closer look

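PDGFRA in ctrl-OE replicate 1 was at 0.281 CPM and in MEIS1-OE replicate 2 at 0.149 CPM, each far below the other 5 libraries of its condition by Dixon's test. Chance gives such a gap in about 1 in 20 groups, and 48 groups of 6 libraries were tested. The effects of the 2 activations differed for PDGFA, by 1.78 on the log2 scale, and for PDGFRB, by 0.40, both higher in MEIS1-OE and both tested directly with edgeR.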

How the results depend on the processing

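Under 13 alternatives, 879 of 936 log2 fold changes of the 8 genes kept their direction and side of the threshold, 34 lost the call, 6 gained it and 17 changed sign, none of them called. KIT in both activations, MEIS2-KO and both contrasts, and PDGFA in MEIS1-OE and the MEIS1 contrast, passed under all alternatives. So did PDGFB and PDGFD in MEIS2-KO, PDGFA and PDGFRB between the activations, and the 7 genes called between the controls. With 1 replicate left out, the number of genes passing ranged from 2 to 4 in MEIS1-OE (2 without replicate 4), 1 to 2 in MEIS2-OE, 0 to 2 in MEIS1-KO (0 without replicate 3) and 2 to 3 in the MEIS1 contrast. With only the compared conditions fitted, it was 1 in MEIS2-OE, 0 in MEIS1-KO, 2 in the MEIS1 contrast and 2 in the MEIS2 contrast (KIT and PDGFD). Such fits have fewer samples. With a replicate block, 2 passed in the MEIS2 contrast (KIT and PDGFB, adjusted p = 0.0234 from edgeR) and PDGFRB passed between the controls (0.0151), and no other call changed. Deviations of same-numbered libraries had a mean r of 0.149, against -0.0326 for other numbers, so that numbers were shared in part. Of the same-numbered pairs, 56 of 90 had r over 0.1, and 14 of 36 libraries correlated best with their own number. The labels name no shared batch, and the block was kept as an alternative. Signs changed near 0 when 1 replicate was left out, for PDGFB (-0.078 to 0.013) and PDGFC (-0.063 to 0.085) in MEIS1-OE, PDGFRA in MEIS2-OE (-0.023 to 0.252), PDGFC in MEIS1-KO (-0.024 to 0.014), PDGFRA in MEIS2-KO (-0.195 to 0.028), PDGFC (-0.039 to 0.098) and PDGFRA (-0.138 to 0.261) in the MEIS1 contrast, PDGFD between the activations (-0.077 to 0.105) and PDGFRA between the knockouts (-0.245 to 0.018). PDGFC in MEIS1-KO was 0.003 with only its conditions fitted, and the MEIS1 contrast of PDGFRA was -0.002 with DESeq2. The causes were not tested. PDGFRA had 3 to 30 counts per library and PDGFA, in the knockout system, 2 to 15.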
